A study of Mus musculus with 6 samples.

Results

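The 34 genes described here carry glucose through glycolysis to lactate. They encode glucose transporters, the glycolytic enzymes and their isozymes, the enzymes that set fructose 2,6-bisphosphate, lactate dehydrogenases, pyruvate dehydrogenase kinases, lactate transporters, phosphoglucomutases and one gluconeogenic enzyme. They were chosen by symbol from a written list. The rule uses no measured value, although the list was drawn up with earlier results of these data known. All 34 were found among the 23473 RefSeq rows of the bulk RNA-seq table. RNA was measured in tumor endothelial cells (TECs) taken from Lewis lung carcinoma (LLC) tumors, a subcutaneous transplant of mouse lung cancer cells, in 3 control (Ctrl) and 3 NICeCA mice. All mice were C57BL/6 and the labels give an age of 8 weeks. By the study's methods, the mice induced with tamoxifen were male. NICeCA mice carry Cdh5 cre ERT2 together with Rosa26 flox-stop-flox Notch1 ICD (the Notch1 intracellular domain behind a removable stop), so that tamoxifen, injected daily before tumor inoculation, turns on Notch signaling in cells that express Cdh5 without any ligand. The labels call the Ctrl genotype wild type, and the sources used here do not say whether the Ctrl mice carried the Cre or also received tamoxifen. Magnetic beads that bind CD31 were used to capture the TECs. CD31 is a surface protein of endothelium which platelets and some leukocytes also carry. The labels state that tumors were dissected on different days without giving the day of each mouse, whereas the study's methods name a single day of dissection for these TECs, so the part of the day was not tested. The question was how endothelial Notch activation changes the RNA of TECs.

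Reads on RefSeq rows numbered 29818454 to 30769916 in the Ctrl libraries and 27793301 to 29194187 in the NICeCA libraries. Of 3 Notch targets looked at, Hey1 was higher in NICeCA TECs (log2 fold change 1.10, standard error 0.27, adjusted p = 0.041). Nrarp had separated groups and missed the threshold (log2 fold change 1.05, standard error 0.29, adjusted p = 0.052), and Hes1 overlapped between the groups (log2 fold change -0.16, standard error 0.19, adjusted p = 0.56). The Notch1 row itself, which the transgene encodes in part, ranged from 8.19 to 14.3 RPKM in Ctrl and from 12.3 to 13.6 RPKM in NICeCA libraries. RPKM scales the reads of a gene to its length and to the depth of the library, so levels of different genes can be set beside each other on this scale. The endothelial markers were present in every library, with a summed level of 257 to 651 RPKM over 14 genes in Ctrl and 560 to 730 RPKM in NICeCA libraries. RNA of other cells was also present. The summed level of 11 macrophage markers, led by Lyz2 (3635 to 5555 RPKM in Ctrl and 2611 to 4562 RPKM in NICeCA libraries), was 6526 to 9446 RPKM in Ctrl and 4469 to 8296 RPKM in NICeCA libraries, above that of the endothelial markers in all 6 libraries. In such bulk RNA, a change in the number of cells of a type and a change of RNA per cell cannot be told apart, and every level given here is that of the captured cells as a whole.

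Glycolysis splits glucose into pyruvate in the cytosol. Hexokinase traps glucose in the cell, phosphofructokinase commits it to the pathway, and the later steps yield ATP and NADH. Lactate dehydrogenase A regenerates NAD+ by reducing pyruvate to lactate, which leaves the cell through a proton-coupled monocarboxylate transporter, while pyruvate dehydrogenase kinases hold pyruvate back from the mitochondria. Endothelial cells are known for making most of their ATP by glycolysis even where oxygen is at hand, and PFKFB3 is known for driving it during vessel sprouting. Many genes of the pathway are textbook targets of the hypoxia-inducible factors and of MYC. Macrophages and neutrophils also run on glycolysis, so these genes mark no cell type.

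Glycolytic RNA was higher in NICeCA TECs from glucose uptake to lactate export. Of the 32 members with a mean of at least 1 RPKM over the 6 libraries, 18 rose past an adjusted p of 0.05, 1 fell and 13 did not pass the test, against 5.88% of all 12320 tested genes that were called higher and 7.68% that were called lower. The 18 rose by log2 fold changes of 0.76 (Pfkl) to 1.76 (Slc2a1), or 1.70- to 3.38-fold on the scale of RPKM + 1, with adjusted p from 0.017 to 0.044. In 20 members the 3 NICeCA libraries lay wholly above the 3 Ctrl libraries and in 2, Eno2 and Pfkm, wholly below, where the background was 16.5% and 24.4% of all tested genes. The median log2 fold change was 0.81 over the 32 members and -0.05 over all tested genes. Eno2 passed the minimum through its level in the Ctrl libraries alone, since its NICeCA mean was below 1 RPKM, and Pdk4 and Fbp1 fell short of it and were not tested. Of all genes called, 43.4% were higher. Under trimmed mean scaling that share was 64.3%, under quantile normalization 57.9% and under limma voom, fitted to recovered reads, 61.3%, and 19, 9 and 19 members were then higher. The values of each gene are shown in the plot of levels by library.

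**Figure D1:**
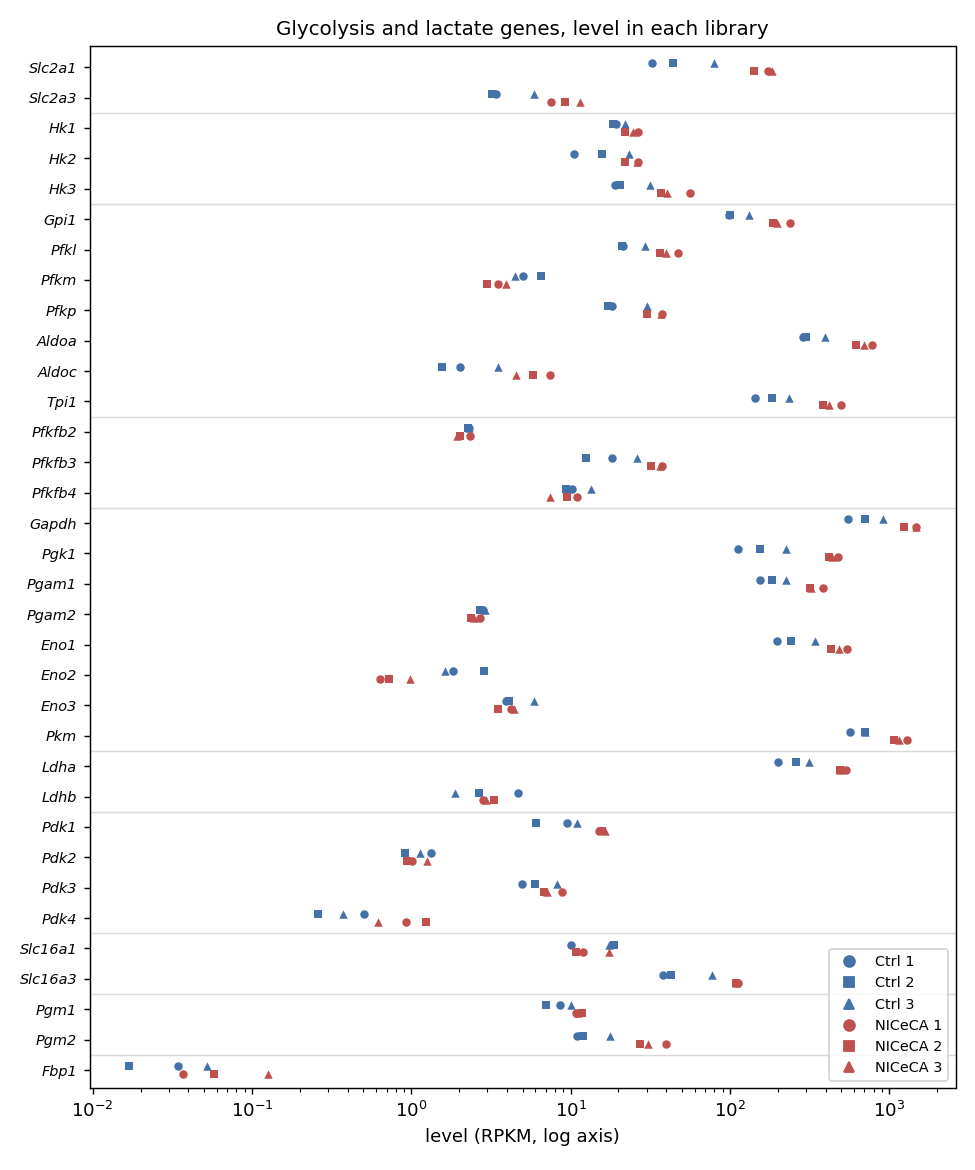
Level of each of the 34 genes in RPKM on a log axis, with 1 point per library (blue, Ctrl replicates 1 to 3; red, NICeCA replicates 1 to 3) and lines between groups of genes of one role. Gpi1, Aldoa, Tpi1, Gapdh, Pgk1, Pgam1, Eno1, Pkm and Ldha sit at 98.7 RPKM or more in every library with all red points to the right of all blue points, whereas minor isozymes such as Pgam2, Eno3 and Ldhb, at 1.89 to 5.91 RPKM, overlap between the groups.

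Added up, the 34 genes took 0.696%, 0.820% and 1.02% of the reads on RefSeq rows in the Ctrl libraries and 1.74%, 1.45% and 1.60% in the NICeCA libraries. In RPKM the sums were 2573, 3116 and 3923 in Ctrl and 6885, 5696 and 6291 in NICeCA libraries. Both scales separated the groups, with Ctrl replicate 3 nearest to the NICeCA libraries. Among the 18 members that rose, Ctrl replicate 3 was the highest Ctrl library in 17, and NICeCA replicate 1 was the highest NICeCA library in 15. The calls were lost when either NICeCA replicate 1 or 2 was left out, although replicate 2 was the lowest NICeCA library in 14 of the 18. The median log2 fold change over the 32 members was 0.73 without NICeCA replicate 1 and 0.87 without NICeCA replicate 2. Without NICeCA replicate 1, 0 of the 32 members passed the limma test, with adjusted p of 0.081 to 0.14 for the 18 and log2 fold changes of at least 0.66, and without NICeCA replicate 2, again 0 passed, with adjusted p of 0.066 to 0.14 and log2 fold changes of at least 0.81. In both cases 21 of the 32 members had an unadjusted p under 0.05, and over all genes only 90 higher and 14 lower, or 17 higher and 1 lower, respectively, were called. Without Ctrl replicate 2, 6 members were called higher and 0 lower, and without Ctrl replicate 1, 10 and 0. Leaving out NICeCA replicate 3 gave 11 higher and 1 lower. All 18 members kept a positive fold change under each alternative in which they were tested.

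**Figure D2:**
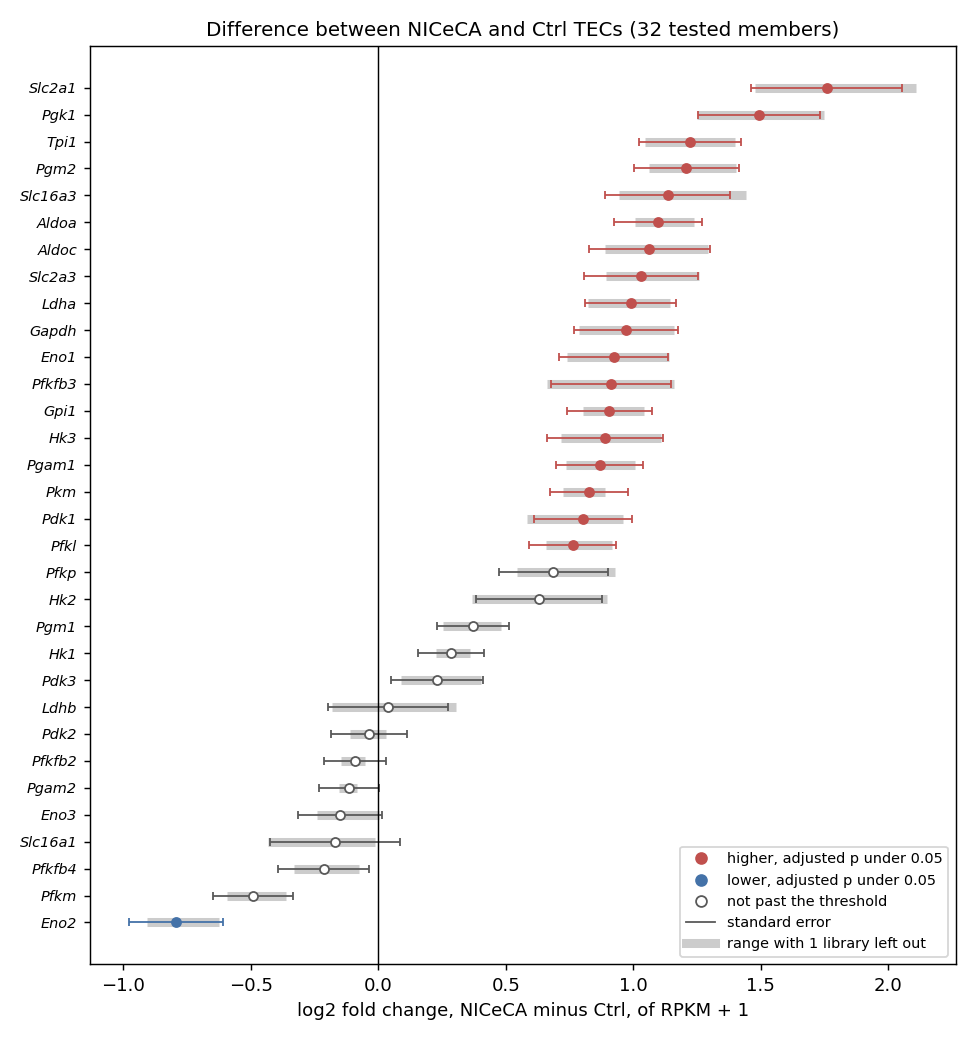
Log2 fold change of RPKM + 1, NICeCA minus Ctrl, for the 32 tested genes in order of size, with thin bars for the standard error and grey bands for the range when 1 library at a time was left out. The 18 genes in red, from Pfkl at 0.76 to Slc2a1 at 1.76, stay to the right of 0 over their whole band, Eno2 in blue lies at -0.79, and open circles mark genes that did not pass the test.

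Promoter sequence is shown for the pair of members with the largest fold changes, Slc2a1 and Pgk1, and for the lactate dehydrogenase pair, in which Ldha rose and Ldhb did not pass the test. The windows are the 250 bases before the RefSeq transcript start (GRCm38.p6), printed 5′ to 3′ on the strand of the gene. Capitals mark ACGTG and GCGTG on either strand (CACGT and CACGC where they lie on the other strand), the 2 forms of the core of the hypoxia response element. The windows are Slc2a1 at chr4:119108495-119108744 (plus strand), Pgk1 at chrX:106186850-106187099 (plus strand), Ldha at chr7:46845554-46845803 (plus strand) and Ldhb at chr6:142507958-142508207 (minus strand).
Slc2a1: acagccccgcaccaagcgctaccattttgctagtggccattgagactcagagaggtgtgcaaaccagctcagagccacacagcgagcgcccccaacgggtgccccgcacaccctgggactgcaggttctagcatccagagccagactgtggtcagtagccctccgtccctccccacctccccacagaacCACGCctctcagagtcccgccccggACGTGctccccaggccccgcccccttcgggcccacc
Pgk1: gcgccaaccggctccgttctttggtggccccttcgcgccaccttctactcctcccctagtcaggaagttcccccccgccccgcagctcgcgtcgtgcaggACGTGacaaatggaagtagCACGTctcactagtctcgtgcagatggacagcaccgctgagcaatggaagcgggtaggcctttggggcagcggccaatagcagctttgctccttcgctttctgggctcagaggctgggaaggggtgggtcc
Ldha: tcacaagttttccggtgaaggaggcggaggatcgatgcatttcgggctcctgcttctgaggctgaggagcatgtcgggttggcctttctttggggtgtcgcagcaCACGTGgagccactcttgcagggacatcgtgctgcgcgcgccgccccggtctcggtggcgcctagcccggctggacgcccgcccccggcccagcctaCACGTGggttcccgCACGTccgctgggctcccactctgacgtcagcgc
Ldhb: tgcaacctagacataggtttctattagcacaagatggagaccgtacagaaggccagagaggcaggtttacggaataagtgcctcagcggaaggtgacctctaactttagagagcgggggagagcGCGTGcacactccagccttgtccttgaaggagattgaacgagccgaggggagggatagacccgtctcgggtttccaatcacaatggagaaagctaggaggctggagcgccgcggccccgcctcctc

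In these windows ACGTG was found 1 time for Slc2a1, 2 times for Pgk1, 5 times for Ldha and 0 times for Ldhb. In Ldha, 4 of the 5 matches are the both-strand reading of 2 E-boxes (CACGTG, the letters that MYC and its partner MAX are known to bind), since a CACGTG holds ACGTG on each strand. A window was matched for 33 of the 34 members. Slc2a3 had no entry, and 1 window per gene was used, that nearest to the start of the gene's row. The transcript start used lay 13205 bases from the row start for Pfkfb2 and 583 bases for Slc16a3. ACGTG was found in 14 of the 33 windows (42.4%), against 16.6% of all 32851 promoters of the same length in the reference table. It was in 8 of 17 windows of members that rose (47.1%) and in 6 of the 16 others (37.5%). The others include Eno2, which fell, and Pdk4 and Fbp1, which were not tested. GCGTG was in 15 of 33 (45.5%, against 28.2%), CACGTG in 4 of 33 (12.1%, against 6.02%) and TGGGAA, the core that the Notch partner RBPj is known to bind, in 8 of 33 (24.2%, against 21.6%). The split between members that rose and the others went the other way for GCGTG (7 of 17, 41.2%, and 8 of 16, 50%) and CACGTG (1 of 17, 5.88%, and 3 of 16, 18.8%), and the same way as ACGTG for TGGGAA (5 of 17, 29.4%, and 3 of 16, 18.8%). These are matches of letters on both strands within 1 short window. They show no binding. The reference promoters were not matched to the members in base composition, and some genes have more than 1 window among them. The part of base composition in the differences from the reference was not tested. Gpi1, Aldoa, Tpi1 and Pkm, which also rose, had neither ACGTG nor GCGTG in their windows.

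Both glucose transporters rose, and Slc2a1 had the largest fold change of the 32 tested members. Slc2a1 (chr4:119108745-119137329), which encodes GLUT1, the transporter that admits glucose to endothelium and most other cells, had 32.5, 43.8 and 79.4 RPKM in Ctrl and 175, 142 and 184 RPKM in NICeCA TECs (libraries in the order of their replicate numbers here and below). Each NICeCA value exceeded each Ctrl value by a wide gap, and the mean rose from 51.9 ± 24.5 to 167 ± 22.02 RPKM (SD of 3 mice per group, as throughout, log2 fold change 1.76, standard error 0.30, adjusted p = 0.021). Slc2a3 (chr6:122727809-122742745), which encodes GLUT3, a transporter of higher affinity known from neurons and leukocytes, had 3.402, 3.197 and 5.93 RPKM in Ctrl and 7.58, 9.19 and 11.5 RPKM in NICeCA TECs. Its groups did not overlap either, at a level far below that of Slc2a1, and its mean rose from 4.18 ± 1.52 to 9.41 ± 1.95 RPKM (log2 fold change 1.03, standard error 0.22, adjusted p = 0.033).

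Of the 3 hexokinases, which phosphorylate glucose, only Hk3 passed the test, against 5.88% of all tested genes called higher. Hk3 (chr13:55005985-55021385), the isozyme known from myeloid cells, had 19.1, 20.4 and 31.7 RPKM in Ctrl and 56.2, 37.1 and 40.4 RPKM in NICeCA TECs. It was the most abundant hexokinase in both groups, with NICeCA replicate 1 the highest library, and its mean rose from 23.8 ± 6.93 to 44.5 ± 10.2 RPKM (log2 fold change 0.89, standard error 0.23, adjusted p = 0.043). Hk2, the inducible isozyme, had 10.6, 15.7 and 23.2 RPKM in Ctrl and 26.7, 22.1 and 26.1 RPKM in NICeCA TECs, so that Ctrl replicate 3 lay among the NICeCA values (log2 fold change 0.63, standard error 0.25, adjusted p = 0.11). Hk1, the broadly expressed isozyme, had 19.2, 18.4 and 22.04 RPKM in Ctrl and 26.5, 21.99 and 24.8 RPKM in NICeCA TECs, with overlapping groups (log2 fold change 0.29, standard error 0.13, adjusted p = 0.15). Rows of opposite-strand genes overlap those of Hk3 (Unc5a), Hk1 (2210417K05Rik), Pfkm (Senp1), Pfkp (Pitrm1), Pfkfb2 (Yod1), Tpi1 (Spsb2) and Pgam1 (Snora19). No source used here states a strand setting for the counting, and reads of such pairs cannot be told apart.

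In upper glycolysis, from glucose 6-phosphate to the triose phosphates, 5 of 7 members rose. Groups were separated upward in 6 and downward in 1, Pfkm. The background was 5.88% of all tested genes called higher, with 16.5% separated upward and 24.4% downward. Gpi1 (chr7:34201327-34230305), which isomerizes glucose 6-phosphate to fructose 6-phosphate, had 98.7, 101 and 133 RPKM in Ctrl and 238, 187 and 198 RPKM in NICeCA TECs. Its mean rose from 111 ± 18.98 to 207 ± 26.99 RPKM (log2 fold change 0.91, standard error 0.17, adjusted p = 0.023). Phosphofructokinase, the committing step, is built from liver, platelet and muscle type subunits. The liver type Pfkl (chr10:77986949-78009796) had 21.3, 21.04 and 29.4 RPKM in Ctrl and 47.5, 36.3 and 39.5 RPKM in NICeCA TECs. It had the smallest fold change among the 18 members that rose, from 23.9 ± 4.78 to 41.1 ± 5.76 RPKM (log2 fold change 0.76, standard error 0.17, adjusted p = 0.035). The platelet type Pfkp (chr13:6579874-6648724) had 18.3, 17.2 and 30.07 RPKM in Ctrl and 37.7, 30.14 and 36.9 RPKM in NICeCA TECs, where Ctrl replicate 3 lay just below the lowest NICeCA library, and it missed the threshold (log2 fold change 0.69, standard error 0.21, adjusted p = 0.067). The muscle type Pfkm (chr15:98092589-98132447) lay the other way, with 5.06, 6.502 and 4.45 RPKM in Ctrl and 3.52, 3.01 and 3.93 RPKM in NICeCA TECs, the NICeCA values all below the Ctrl values but not past the threshold (log2 fold change -0.49, standard error 0.16, adjusted p = 0.069).

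Aldolase cleaves fructose 1,6-bisphosphate. Aldoa (chr7:126795234-126800447), the ubiquitous form, had 287, 301 and 394 RPKM in Ctrl and 784, 617 and 692 RPKM in NICeCA TECs. The gap between the highest Ctrl and the lowest NICeCA library was wide, and the mean rose from 327 ± 57.9 to 698 ± 83.9 RPKM (log2 fold change 1.10, standard error 0.17, adjusted p = 0.017). Aldoc (chr11:78324198-78326760), the form known from brain, had 2.02, 1.56 and 3.495 RPKM in Ctrl and 7.45, 5.79 and 4.53 RPKM in NICeCA TECs. Though scarce, it rose as well, from 2.36 ± 1.01 to 5.92 ± 1.47 RPKM (log2 fold change 1.06, standard error 0.24, adjusted p = 0.035). Tpi1 (chr6:124810592-124814296), which interconverts the 2 triose phosphates, had 145, 184 and 236 RPKM in Ctrl and 500.0, 387 and 418 RPKM in NICeCA TECs. Its NICeCA libraries were far above its Ctrl libraries, and its mean rose from 188 ± 46.1 to 435 ± 58.5 RPKM (log2 fold change 1.22, standard error 0.20, adjusted p = 0.020).

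Among the enzymes that make and remove fructose 2,6-bisphosphate, the strongest activator of phosphofructokinase, 1 of 3 rose, against 5.88% of all tested genes. Pfkfb3 (chr2:11471431-11553929), the isozyme with the highest kinase activity, had 18.3, 12.6 and 26.1 RPKM in Ctrl and 37.3, 31.9 and 36.5 RPKM in NICeCA TECs. Its 3 NICeCA libraries were close to each other and above the Ctrl libraries, which spread widely, and the mean rose from 18.97 ± 6.77 to 35.2 ± 2.89 RPKM (log2 fold change 0.91, standard error 0.23, adjusted p = 0.044). Pfkfb4 did not pass the test and had 10.3, 9.32 and 13.4 RPKM in Ctrl and 10.97, 9.56 and 7.45 RPKM in NICeCA TECs (log2 fold change -0.21, standard error 0.18, adjusted p = 0.42). Pfkfb2 stayed between 1.93 and 2.33 RPKM in all 6 libraries.

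In lower glycolysis, from glyceraldehyde 3-phosphate to pyruvate, the 5 abundant enzymes rose, 1 minor enolase fell and 2 minor isozymes did not pass the test. The background was 5.88% of all tested genes called higher and 7.68% called lower. Gapdh (chr6:125161852-125165583), which makes NADH and is often used as a reference gene, had 548, 703 and 919 RPKM in Ctrl and 1477, 1236 and 1467 RPKM in NICeCA TECs. It had the highest level of all members and rose with the rest, from 723 ± 187 to 1393 ± 136 RPKM (log2 fold change 0.97, standard error 0.21, adjusted p = 0.032). Pgk1 (chrX:106187124-106203699), which makes the first ATP of the pathway, had 112, 155 and 225 RPKM in Ctrl and 480.4, 417 and 440.2 RPKM in NICeCA TECs. The NICeCA libraries were close together and far above the Ctrl libraries, and the mean rose from 164 ± 57.01 to 446 ± 31.9 RPKM (log2 fold change 1.49, standard error 0.24, adjusted p = 0.019), a fold change second in size to that of Slc2a1. Pgam1 (chr19:41911871-41918665), the phosphoglycerate mutase of most tissues, had 154, 185 and 225 RPKM in Ctrl and 383, 317 and 325 RPKM in NICeCA TECs. Its groups were separated and its mean rose from 188 ± 35.5 to 342 ± 36.2 RPKM (log2 fold change 0.87, standard error 0.17, adjusted p = 0.027).

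The next step is enolase. Eno1 (chr4:150237197-150248873), the ubiquitous form, had 197, 242 and 344 RPKM in Ctrl and 541, 431 and 484 RPKM in NICeCA TECs. All NICeCA libraries were above all Ctrl libraries, of which Ctrl replicate 3 was the nearest, and the mean rose from 261 ± 75.2 to 485 ± 54.9 RPKM (log2 fold change 0.92, standard error 0.21, adjusted p = 0.037). Eno2 (chr6:124760055-124769509), known as neuron-specific enolase, was the 1 member that fell, with 1.84, 2.88 and 1.63 RPKM in Ctrl and 0.635, 0.721 and 0.9798 RPKM in NICeCA TECs. It was scarce in both groups, at 61 to 302 reads per library, and its mean fell from 2.12 ± 0.672 to 0.779 ± 0.179 RPKM (log2 fold change -0.79, standard error 0.18, adjusted p = 0.037). Eno2 was tested only because of its level in the Ctrl libraries. Pkm (chr9:59656368-59679375), which makes pyruvate and the second ATP, had 571, 708 and 706 RPKM in Ctrl and 1294, 1068 and 1155 RPKM in NICeCA TECs. Its mean rose from 662 ± 78.96 to 1172 ± 114 RPKM (log2 fold change 0.83, standard error 0.15, adjusted p = 0.024), and the row does not separate the M1 and M2 splice forms. The muscle forms Pgam2 (2.72 to 2.92 RPKM in Ctrl and 2.38 to 2.72 RPKM in NICeCA libraries) and Eno3 (3.93 to 5.91 RPKM in Ctrl and 3.497 to 4.39 RPKM in NICeCA libraries) overlapped between the groups. Many abundant glycolytic genes, Gapdh above all, have processed copies elsewhere in the mouse genome that could share reads. Related genes were looked for by the start of the row name only. The 5 found (Aldoart1, Aldoart2, Gapdhs, Ldhal6b and Pgk2) reached at most 1.07 RPKM in any library. Processed copies under other names or without a row were not looked at, so the sharing of reads was not tested.

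At the end of the pathway, Ldha and Slc16a3, the RNAs for making and exporting lactate, rose, and their partners Ldhb and Slc16a1 did not pass the test. Ldha (chr7:46845804-46855627), whose subunit favors the reduction of pyruvate to lactate and whose promoter window is printed above, had 201, 259 and 314 RPKM in Ctrl and 538, 490.3 and 490.0 RPKM in NICeCA TECs. The 3 NICeCA libraries lay close together above the Ctrl libraries, and the mean rose from 258 ± 56.5 to 506 ± 27.4 RPKM (log2 fold change 0.99, standard error 0.18, adjusted p = 0.023). Ldhb, the heart type subunit, had 4.67, 2.67 and 1.89 RPKM in Ctrl and 2.804, 3.32 and 2.96 RPKM in NICeCA TECs, with Ctrl replicate 1 the highest and Ctrl replicate 3 the lowest of all 6 libraries (log2 fold change 0.04, standard error 0.23, adjusted p = 0.92). Slc16a3 (chr11:120948484-120959000), which encodes MCT4, the lactate exporter of strongly glycolytic cells, had 38.2, 42.4 and 76.9 RPKM in Ctrl and 113, 110.0 and 110.1 RPKM in NICeCA TECs. Its NICeCA values were nearly equal, all above the Ctrl values, and the mean rose from 52.5 ± 21.2 to 111 ± 1.79 RPKM (log2 fold change 1.14, standard error 0.25, adjusted p = 0.033). Slc16a1, which encodes MCT1, the transporter that moves lactate either way, had 10.00, 18.7 and 17.5 RPKM in Ctrl and 11.98, 10.8 and 17.4 RPKM in NICeCA TECs, with overlapping groups (log2 fold change -0.17, standard error 0.26, adjusted p = 0.66). In the annotation Slc16a3 overlaps Csnk1d.

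Pyruvate dehydrogenase kinases switch off the entry of pyruvate into the citric acid cycle. Of the 3 tested, 1 rose, against 5.88% of all tested genes. Pdk1 (chr2:71873272-71903858) had 9.45, 6.08 and 10.95 RPKM in Ctrl and 15.1, 15.7 and 16.5 RPKM in NICeCA TECs. The groups did not overlap, with NICeCA libraries nearly equal, and the mean rose from 8.83 ± 2.49 to 15.8 ± 0.6599 RPKM (log2 fold change 0.80, standard error 0.19, adjusted p = 0.039). Pdk2 (0.9099 to 1.32 RPKM in Ctrl and 0.939 to 1.26 RPKM in NICeCA libraries) and Pdk3 (4.98 to 8.28 RPKM in Ctrl and 6.84 to 8.81 RPKM in NICeCA libraries) overlapped between the groups. Pdk4, the kinase known for its rise on fasting, was below the minimum for the test, with 0.504, 0.262 and 0.371 RPKM in Ctrl and 0.928, 1.24 and 0.622 RPKM in NICeCA TECs. Its NICeCA libraries were all above its Ctrl libraries, on 36 to 151 reads per library. Fbp1, which runs a glycolytic step backwards in gluconeogenesis, had 1 to 7 reads per library.

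The phosphoglucomutases link glucose 6-phosphate with glycogen. Their names need care, since the row named Pgm2 in the table (chr4:99929451-99987294) is the gene now called Pgm1, the main phosphoglucomutase, and the row named Pgm1 (chr5:64092950-64128158) is the gene now called Pgm2. The former had 11.04, 12.1 and 17.7 RPKM in Ctrl and 39.5, 27.3 and 30.8 RPKM in NICeCA TECs. Its NICeCA libraries were all well above its Ctrl libraries, and its mean rose from 13.6 ± 3.61 to 32.5 ± 6.27 RPKM (log2 fold change 1.21, standard error 0.20, adjusted p = 0.021), the fourth largest fold change of the 32. The latter had 8.59, 7.06 and 10.1 RPKM in Ctrl and 10.9, 11.8 and 11.1 RPKM in NICeCA TECs, separated by a narrow gap and not past the threshold (log2 fold change 0.37, standard error 0.14, adjusted p = 0.11).

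From glucose uptake through the glycolytic enzymes to lactate transport, 13 steps were distinguished, and 8 of them have several members. This split was made after the values were seen. At each of the 13 steps the member with the highest Ctrl mean was also the one with the highest NICeCA mean, and each of these 13 rose, by log2 fold changes of 0.76 to 1.76 with a median of 0.97. Of the 11 other isozymes of these steps, 2 rose (Slc2a3 and Aldoc), 1 fell (Eno2) and 8 did not pass the test, with a median of 0.04. The added 1 understates the change of scarce isozymes, so the 2 medians do not compare like with like. Of the 8, those with Ctrl means of 15.4 to 21.9 RPKM were Pfkp (log2 fold change 0.69), Hk2 (0.63), Hk1 (0.29) and Slc16a1 (-0.17). The most abundant form made up nearly all of its step at aldolase (Aldoa, 99.3 ± 0.182% in Ctrl and 99.2 ± 0.165% in NICeCA libraries), enolase (Eno1, 97.4 ± 0.392% in Ctrl and 99.01 ± 0.101% in NICeCA libraries) and lactate dehydrogenase (Ldha, 98.7 ± 0.867% in Ctrl and 99.4 ± 0.0765% in NICeCA libraries). At the other extreme, the share of Hk3 in hexokinase RNA was 39.3 ± 1.92% in Ctrl and 47.1 ± 3.77% in NICeCA libraries, and that of Pfkl in phosphofructokinase RNA was 46.9 ± 0.837% in Ctrl and 51.7 ± 2.23% in NICeCA libraries (means ± SD, n = 3 mice each, from RPKM).

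Isozymes were also compared directly, as the log2 ratio of RPKM + 1 between 2 genes of the same library, which does not depend on how that library was scaled apart from the added 1. Of 10 ratios, 6 separated the groups, each with an exact permutation p = 0.1 (two-sided), the smallest that 3 against 3 libraries allow, or 0.17 after adjustment over the 10, so none could pass a threshold of 0.05. Slc16a3 to Slc16a1 was 1.83, 1.14 and 2.08 in Ctrl and 3.14, 3.24 and 2.59 in NICeCA TECs, a difference of 1.31, with the exporter MCT4 further ahead in NICeCA TECs. Ldhb to Ldha was -5.16, -6.15 and -6.77 in Ctrl and -7.15, -6.83 and -6.96 in NICeCA TECs, a difference of -0.95. This separation rests on the added 1. With a pseudocount of 0.1 the groups overlapped (exact permutation p = 0.2), and by share of RPKM Ldha made up 99.40% of lactate dehydrogenase RNA in Ctrl replicate 3 and 99.33% in NICeCA replicate 2. Eno2 to Eno1 was -6.12, -5.97 and -7.04 in Ctrl and -8.37, -7.97 and -7.94 in NICeCA TECs (difference -1.72), the largest difference of the 10. The size of this difference depends on the added 1, since Eno2 was below 1 RPKM in every NICeCA library. With a pseudocount of 0.1 it was -2.24 (exact permutation p = 0.1). Pfkfb4 to Pfkfb3 was -0.78, -0.40 and -0.91 in Ctrl and -1.68, -1.64 and -2.15 in NICeCA TECs (difference -1.13). In both the abundant isozyme was further ahead in NICeCA TECs, as it was in Slc2a3 to Slc2a1 (difference -0.73) and Hk3 to Hk1 (difference 0.61). The ratios of Hk2 to Hk1 (0.35, p = 0.3), Pfkl to Pfkp (0.08, p = 0.6), Aldoc to Aldoa (-0.03, p = 0.7) and Pdk4 to Pdk1 (-0.33, p = 0.3) overlapped between the groups in the exact permutation test.

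**Figure D3:**
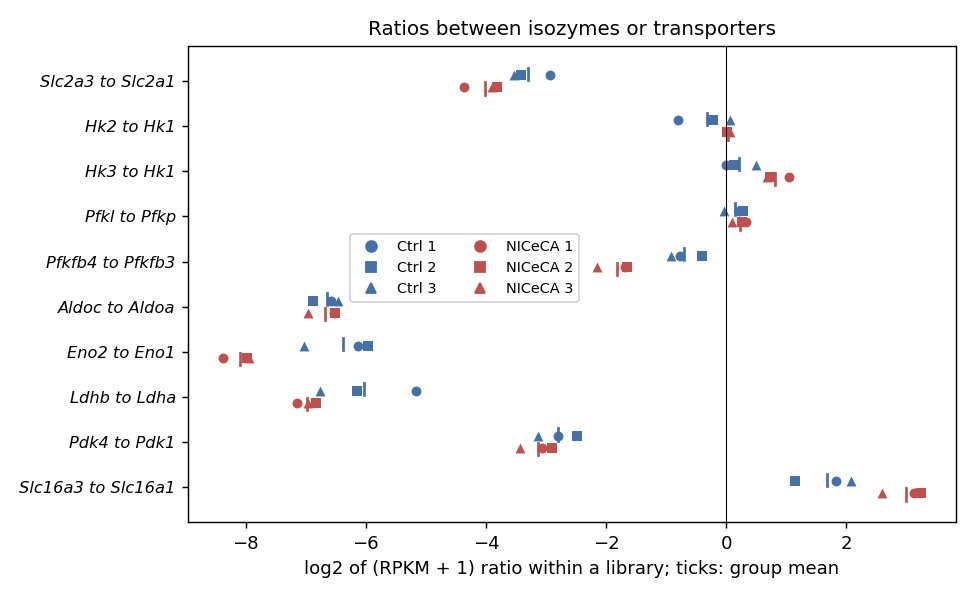
Log2 ratio of RPKM + 1 between 2 isozymes or transporters within each library (blue, Ctrl; red, NICeCA; short ticks, group means). Red and blue points are apart for 6 ratios, with the widest difference of means at Eno2 to Eno1 (-1.72), and mixed for Hk2 to Hk1, Pfkl to Pfkp, Aldoc to Aldoa and Pdk4 to Pdk1.

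Of 93 genes of neighbouring pathways, 66 were tested, and 8 rose and 1 fell, with groups separated upward in 14 and downward in 7 and a median log2 fold change of 0.08. Over all tested genes 5.88% were called higher and 7.68% lower, and 16.5% and 24.4% were separated upward and downward. Among lactate transport genes, 2 of 3 tested rose, both of them chaperones. Bsg, which encodes basigin, the partner that carries MCT1 and MCT4 to the cell surface, had 69.4, 85.4 and 97.2 RPKM in Ctrl and 147, 154 and 178 RPKM in NICeCA TECs. It rose with Slc16a3, from 84.01 ± 13.97 to 159.6 ± 16.5 RPKM (log2 fold change 0.93, standard error 0.16, adjusted p = 0.021). Emb, which encodes embigin, a partner of MCT1 and MCT2, had 34.4, 18.5 and 45.6 RPKM in Ctrl and 98.6, 73.5 and 62.9 RPKM in NICeCA TECs and rose as well (log2 fold change 1.29, standard error 0.31, adjusted p = 0.040). Of 10 glycogen and sugar nucleotide genes tested, 4 rose, and they comprise both synthesis and breakdown. Gys1, glycogen synthase, rose from 7.44 ± 1.52 to 12.4 ± 1.71 RPKM (log2 fold change 0.68, standard error 0.17, adjusted p = 0.042). Gbe1, the branching enzyme, rose from 4.605 ± 0.365 to 7.399 ± 0.269 RPKM (log2 fold change 0.59, standard error 0.11, adjusted p = 0.025). Ugp2, which makes UDP-glucose, rose from 9.202 ± 2.06 to 15.4 ± 1.26 RPKM (log2 fold change 0.70, standard error 0.16, adjusted p = 0.036). Pygl, a glycogen phosphorylase, rose from 17.9 ± 6.28 to 40.4 ± 10.00 RPKM (log2 fold change 1.17, standard error 0.28, adjusted p = 0.040). Gyg, the glycogenin that primes glycogen, had separated groups but did not pass (log2 fold change 0.53, standard error 0.19, adjusted p = 0.097).

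In the pentose phosphate pathway 1 of 10 tested genes rose, near the 5.88% of all tested genes and so no result about the pathway. It was the transaldolase Taldo1, which rose from 75.1 ± 6.28 to 113 ± 14.6 RPKM (log2 fold change 0.58, standard error 0.14, adjusted p = 0.042). The same share, 1 of 10, rose in pyruvate entry and the pyruvate dehydrogenase complex. It was Mpc2, a subunit of the mitochondrial pyruvate carrier, which rose from 19.5 ± 0.9099 to 27.3 ± 3.23 RPKM (log2 fold change 0.46, standard error 0.13, adjusted p = 0.0495), a call close to the threshold. Among the other glucose transporters, Slc2a6 fell from 13.9 ± 0.633 to 7.198 ± 1.18 RPKM (log2 fold change -0.87, standard error 0.14, adjusted p = 0.018), against the direction of Slc2a1 and Slc2a3, and Slc2a13 had separated groups at a low level (log2 fold change 0.43, standard error 0.20, adjusted p = 0.16). Among shuttles and branches 0 of 10 passed the limma test at an adjusted p of 0.05, where Shmt2, the mitochondrial serine hydroxymethyltransferase, came nearest (log2 fold change -0.62, standard error 0.18, adjusted p = 0.058). Of the 8 remaining glycolytic and gluconeogenic isozymes and the 11 regulators tested, 0 passed it. At an unadjusted p under 0.05 there were 2 of 10 shuttles and branches and 1 of 8 isozymes, all lower. Of the 11 regulators there were 4, of which 2 were higher and 2 lower. Of the regulators, Hif1a, Epas1 and Myc were picked after their values were seen, for the letters searched in the promoters. Hif1a had 52.8, 38.1 and 65.1 RPKM in Ctrl and 62.4, 77.6 and 76.99 RPKM in NICeCA TECs (log2 fold change 0.49, standard error 0.20, adjusted p = 0.13). Epas1, which encodes HIF-2α, had 22.6, 10.02 and 15.1 RPKM in Ctrl and 20.4, 28.4 and 24.2 RPKM in NICeCA TECs (log2 fold change 0.64, standard error 0.27, adjusted p = 0.13). Myc had 31.9, 73.1 and 45.3 RPKM in Ctrl and 17.4, 23.7 and 47.9 RPKM in NICeCA TECs, with NICeCA replicate 3 inside the Ctrl range (log2 fold change -0.78, standard error 0.40, adjusted p = 0.20). The groups of Hif1a, Epas1 and Myc overlapped. Of the regulators at an unadjusted p under 0.05, Hif1a and Epas1 were higher. Trp53 (log2 fold change -0.47) and Mlxip (log2 fold change -0.44) were lower. Arnt had groups separated downward (log2 fold change -0.23, standard error 0.11, adjusted p = 0.16) and Esrra upward (log2 fold change 0.14, standard error 0.13, adjusted p = 0.45).

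**Figure D4:**
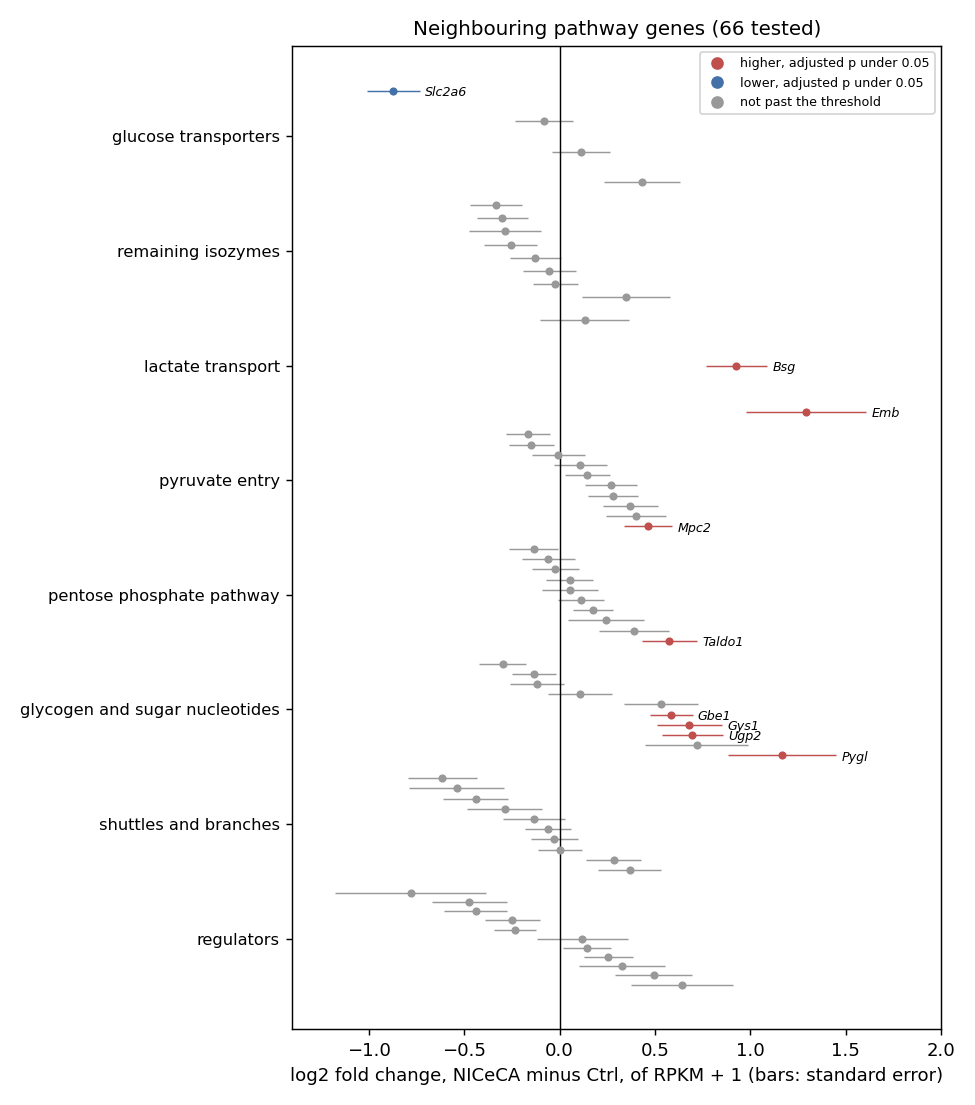
Log2 fold change of RPKM + 1, NICeCA minus Ctrl, with its standard error for the 66 tested genes of neighbouring pathways, grouped by role. The 8 genes called higher (red) belong to lactate transport, pyruvate entry, the pentose phosphate pathway and glycogen metabolism, the 1 called lower (blue) is Slc2a6 at -0.87, and grey points did not pass the test.

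Hypoxia-induced genes outside glycolysis were mostly higher in NICeCA TECs as well. Over all tested genes 5.88% were called higher and 16.5% were separated upward. Of 15 hypoxia-induced genes outside glycolysis, 11 rose and the groups of 14 were separated upward, with a median log2 fold change of 1.13. Their summed level was 229 to 356 RPKM in Ctrl and 641 to 729 RPKM in NICeCA libraries, and Ctrl replicate 3 was again the highest Ctrl library. Bnip3, a mitophagy receptor, had 14.3, 13.7 and 32.9 RPKM in Ctrl and 109.5, 101 and 98.3 RPKM in NICeCA TECs (log2 fold change 2.40, standard error 0.30, adjusted p = 0.011). Vegfa, the main angiogenic ligand, had 41.7, 35.7 and 70.1 RPKM in Ctrl and 111, 108 and 125 RPKM in NICeCA TECs (log2 fold change 1.26, standard error 0.24, adjusted p = 0.025). Car9, often used as a hypoxia marker, was at 1.24 to 1.45 RPKM in Ctrl and 1.59 to 1.66 RPKM in NICeCA libraries and did not pass the test (log2 fold change 0.18, standard error 0.13, adjusted p = 0.33), and the gene of the list whose groups overlapped was Egln1. Of 8 proliferation genes, Mki67 fell (log2 fold change -0.90, standard error 0.22, adjusted p = 0.041) and the other 7 did not pass the test. All 8 had negative fold changes (median -0.28), as had 6811 of all 12320 tested genes. The share of all tested genes called lower was 7.68%.

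Some markers of endothelium and of other cells differed between the groups as well. Over all tested genes, 5.88% were called higher and 7.68% lower. All 14 endothelial markers had positive fold changes and 2, Flt1 and Vwf, passed the test (median 0.66). Of all 12320 tested genes, 5509 had positive fold changes. Ctrl replicates 2 and 3 had the lowest endothelial sums (257 and 334 RPKM), while Ctrl replicate 1 (651 RPKM) lay among the NICeCA values. Of 9 tested neutrophil markers 8 rose. Among these, Ngp was tested only because of its level in the NICeCA libraries (mean 0.424 RPKM in Ctrl and 2.11 RPKM in NICeCA libraries). The summed level of the 11 neutrophil rows found, tested or not, was 119 to 278 RPKM in Ctrl and 643 to 1748 RPKM in NICeCA libraries. Of the platelet list Pf4 and Ppbp rose (summed level of the list 116 to 198 RPKM in Ctrl and 1175 to 1308 RPKM in NICeCA libraries), while its other 4 genes, Itga2b, Gp9, Gp1bb and Treml1, stayed between 0.286 and 2.58 RPKM. Of 11 macrophage markers, Cd68, Itgam and Fcgr1 rose, with a median of -0.17 over the list. The fibroblast and pericyte list was at 347 to 579 RPKM in Ctrl and 198 to 396 RPKM in NICeCA libraries, with Col3a1, Pdgfra and Lum lower and Rgs5 higher. T and NK cell markers (43.4 to 63.9 RPKM over all libraries), erythroid genes (5.66 to 27.4 RPKM), skeletal muscle genes (9.17 to 20.8 RPKM) and keratin and epithelial genes (6.13 to 12.3 RPKM) were low. Among them Gzmb of the T and NK cell list rose (log2 fold change 0.70, standard error 0.15, adjusted p = 0.034) and Krt18 of the keratin and epithelial list fell (log2 fold change -0.98, standard error 0.23, adjusted p = 0.038). The part of these cells, and of the hypoxia-induced genes, in the glycolytic difference was not tested.

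**Figure D5:**
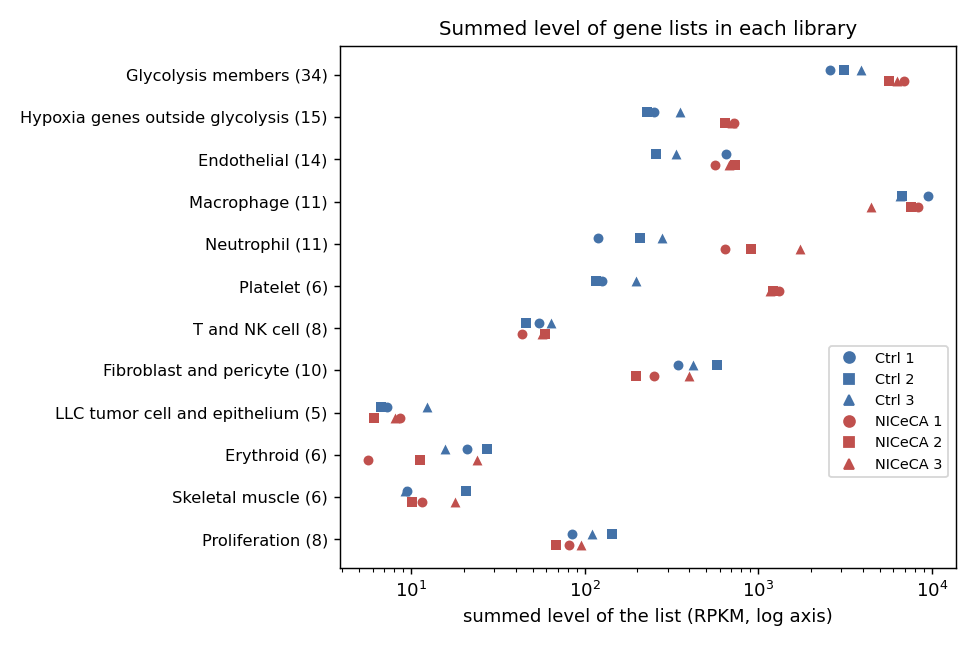
Summed level in RPKM, on a log axis, of the 34 glycolysis genes, of hypoxia genes outside glycolysis and of marker lists, with 1 point per library (blue, Ctrl; red, NICeCA) and the number of genes in parentheses. Glycolysis, hypoxia, neutrophil and platelet sums are separated with all NICeCA libraries higher, while endothelial, macrophage and fibroblast sums overlap between the groups.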

How the data were processed

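RNA-seq of TECs from 3 Ctrl and 3 NICeCA mice was analysed from 1 table. Libraries were matched to groups through the sample titles and the library names in the labels. The authors deposited RPKM values for 56826 rows (23473 RefSeq, 33353 FANTOM3 transcript models), with ribosomal RNA depleted beforehand and replicates not pooled. The submitters' processing notes name TopHat2 and mm9, but 99.8% of 21547 RefSeq rows with a current symbol overlap that gene in GRCm38, so positions are GRCm38. No source used here names the counting tool.

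RPKM times row length was a whole multiple of 1 read for 100% of values under 1000 reads, within 0.05 read, which gave the depth of each library. The count of reads on a row bears on precision, and low rows such as Eno2 are the least precise. RefSeq rows with a mean of at least 1 RPKM were compared as log2(RPKM + 1) in R 4.3.3 by limma 3.58.1 (linear model, moderated with a mean-variance trend, two-sided, Benjamini-Hochberg over all 12320 rows, adjusted p under 0.05). This scale understates the change of low genes. Isozyme ratios were compared with an exact permutation test (20 assignments, smallest two-sided p 0.1). Each library came from its own mouse. No pair of libraries of a group agreed within sampling noise.

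The members, neighbouring genes, markers and motifs were chosen with earlier results of these data known. Full values are given for members past the threshold or with separated groups. Of the neighbours, those past the threshold and the 12 with the largest fold change among separated groups are named. Promoter windows and symbols came from RefSeq (GRCm38.p6), which matched 33 of 34 members. The fit was tested on simulated data: for NICeCA against Ctrl with 12298 genes tested, 70% of 100 genes changed 2-fold and 93.6% of 94 changed 4-fold were recovered, and 9 unchanged genes were called. With no gene changed, 0 of 12266 were called. Each gene was simulated on its own, without variation shared by the genes of a library. The simulation therefore cannot show how many false calls such shared variation would give in the real libraries. Alternatives comprised the replicate block, leaving out each library, other scalings, pseudocounts and filters, limma without the trend, limma voom and the FANTOM3 rows.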

Additional observations from a re-analysis of the deposited data

How the results depend on the processing

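With 3 mice a group the calls turned on single libraries, and the part of depth was not tested. Leaving out 1 library moved members called higher between 0 and 20 and lower between 0 and 1, all genes called higher between 17 and 911 and lower between 1 and 832, and neighbouring genes higher between 0 and 8 and lower between 0 and 2. The 0 calls came without NICeCA replicate 1 or 2 (limma), where 21 of 32 members and 13 or 10 neighbours had an unadjusted p under 0.05. Without the level minimum, 6 members were higher and 0 lower of 34, 260 genes higher and 105 lower, and 1 neighbour higher. With a mean of at least 5 RPKM, 17 members were higher and 0 lower of 24 (Eno2 was not tested), and 579 genes lower. Quantile normalization gave 9 members higher and 0 lower, 446 genes higher and 325 lower, and 3 neighbours higher. Trimmed mean scaling gave 1101 genes higher and 612 lower, and with FANTOM3 rows 2185 rows were lower. The cause of these shifts was not tested.

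Replicate numbers are shared by the groups in the titles, but same-numbered libraries did not deviate together (correlations of 0.12, -0.34 and -0.18), so the numbers were not taken as pairs. The study's methods speak of pairs of mice, without saying what a pair shared or how the numbers match it, so a pairing by these numbers remains possible. With the replicate block, 7 members were higher and 0 lower, 327 genes higher and 209 lower, and 2 neighbours higher. Slc2a1, Pgk1, Tpi1, Pgm2 and Aldoa lost their calls only without NICeCA replicate 1 or 2.

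None of the values that reversed had passed a test. They were Pfkfb2 (0.0668) and Pgam2 (0.0365) after quantile normalization, Pdk2 after trimmed mean scaling (0.0145), quantile normalization (0.0746) and voom (0.0393) or with 1 library left out (-0.110 to 0.0314), Eno3 (-0.24 to 0.00458) and Ldhb (-0.18 to 0.30) with 1 library left out, and the ratios of Pfkl to Pfkp (-0.0143 to 0.141) and of Aldoc to Aldoa (-0.15 to 0.12) with 1 library left out. With a pseudocount of 0.1, the ratios of Aldoc to Aldoa (0.24) and of Pdk4 to Pdk1 (0.22) reversed, and the groups overlapped in that of Ldhb to Ldha (exact permutation p = 0.2). The planned quasi-likelihood test of recovered reads was not run.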

Other observations

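The values of 3 of the 27 neighbouring genes under the level minimum are given without a test. Gapdhs, the glyceraldehyde phosphate dehydrogenase of sperm, had 0.739, 0.972 and 1.07 RPKM in Ctrl and 0.395, 0.409 and 0.551 RPKM in NICeCA libraries. Slc2a4, which encodes the insulin-responsive transporter GLUT4, had 0.227, 0.151 and 0.191 RPKM in Ctrl and 0.437, 0.321 and 0.495 RPKM in NICeCA libraries. Slc16a8, which encodes MCT3, the lactate transporter of retinal pigment epithelium, had 0.515, 0.575 and 0.229 RPKM in Ctrl and 0.0459, 0.190 and 0.165 RPKM in NICeCA libraries. These 3 were singled out after their values were seen.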
